A study of Mus musculus with 12 samples.

Results

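The replication-dependent histone genes were examined in mouse alveolar macrophages after inhaled ozone. They were found by name: symbols that begin with Hist1h, Hist2h, Hist3h or Hist4h, or that read H2ac, H2bc, H3c or H4c followed by a number. Of 61 such symbols, 1 marked a pseudogene and 11 held 1 identical value in every mouse, which left 49 genes of the 55291 in the table, 25444 of them with varying values. These 49 were 12 H2A, 14 H2B, 12 H3 and 11 H4 genes. Genes for the linker histone H1 carry other symbols in this table and were not members.

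The study exposed female C57BL/6NJ mice aged 8 to 11 weeks to 0.8 ppm ozone or to filtered air for 4 hours a day on 4 consecutive days, with 6 mice in each group. Lungs were taken 3 days after the last exposure, and alveolar macrophages, the phagocytes that live in the air spaces, were sorted by flow cytometry, so each sample is 1 mouse's sorted cells. Sorting ran in 2 batches, each with 3 mice of either group. PolyA RNA was sequenced as paired-end reads of 50 bases.

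Histone proteins form the spools on which DNA is wound, and each spool holds a pair of each of the core histones H2A, H2B, H3 and H4. A dividing cell must make them in bulk while it copies its DNA, and the genes for this supply sit in clusters of near-identical copies that are switched on in S phase. Their mRNAs are unusual: most end in a short stem-loop that is bound by the protein SLBP, in place of the poly(A) tail of other mRNAs. Replication-independent variants such as H2A.Z or H3.3 come from genes outside the clusters, and their mRNAs generally carry a poly(A) tail. A polyA library therefore holds mainly those replication-dependent transcripts that have been polyadenylated.

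The clusters and the stem-loop could be read in the mouse genome GRCm38 with the GENCODE M21 annotation, the build that corresponds to the mm10 named in the submitters' processing notes. All 49 genes matched. By their RefSeq positions, 40 of them lie on chromosome 13, within chr13:21715711-23762386, and 9 on chromosome 3, within chr3:96219885-96270192. The histone stem-loop consensus, 16 bases long with a stem of 6 bases on each side and a loop of 4, was searched on the sense strand after the stop codon. It was found in 35 of the 49 genes, 21 to 58 bases after the stop codon. Only 107 of the 55063 annotated coding transcripts, or 0.194%, hold it. The GENCODE annotation ends at the stop codon in 10 of the members, so no search was made there. RefSeq spans can run on, as in H4c12 with 409 bases against 312 coding bases, and were not searched. The sequences below are those of the genes described with their values in each mouse, except H4c12, whose annotation ends at the stop codon, with H2ax for comparison, 5′ to 3′ on the sense strand. Capitals mark the stem-loop, which lies in the 3′ UTR, and 5 flanking bases on either side are in lower case.
H2ac6: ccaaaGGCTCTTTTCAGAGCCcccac
H2ac8: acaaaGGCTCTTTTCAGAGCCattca
H2bc6: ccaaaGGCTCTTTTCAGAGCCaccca
H2bc14: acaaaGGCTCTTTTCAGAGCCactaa
H3c6: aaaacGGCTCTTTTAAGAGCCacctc
H3c15: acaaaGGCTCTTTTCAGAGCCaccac
H4c9: ttaaaGGCCCTTTTTAGGGCCaccac
H2ax: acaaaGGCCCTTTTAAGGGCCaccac
The element of H3c6 lies at chr13:23561903-23561918 on the minus strand, that of H3c15 at chr3:96238485-96238500 on the minus strand, and that of H4c9 at chr13:22040966-22040981 on the minus strand. One exact sequence, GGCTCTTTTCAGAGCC, was shared by 18 members. The type of histone went with the stem: all 7 H2A, 9 H2B and 9 H3 genes with an element had a stem that begins GGCTCT, and none of the 10 H4 genes with an element did. The H4 stems began GGCCCT or GGTCCT. H2ax, best known for its phosphorylation at DNA breaks, is listed here with the replication-independent variants. It nevertheless has a stem-loop of the H4 kind and another 822 annotated bases behind it.

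Annotated transcripts differed in how far they run on past the stem-loop, and so did the detection of the genes. A gene was tested where at least 6 of the 12 mice were above a shared minimum, the lowest value when 2 or more mice of a batch had it in common. By this rule 42 members were tested, 8 H2A, 12 H2B, 11 H3 and 11 H4 genes. The 7 that fell short were H2ac13, H2ac18, H2ac21, Hist1h2an, H2bc13, H2bc18 and H3c10. Of the 19 members annotated with more than 50 bases behind the stem-loop, all 19 were tested and none had a mouse at a shared minimum. Of the 16 that end within 50 bases of it, 15 were tested and 10 had no mouse at the minimum. Among the 14 with no element in the annotated transcripts, 8 were tested and 5 had no mouse at the minimum. These classes also differ in annotated length, and the part of length in this pattern was not tested. H2ac6, H2bc6 and H4c14 were among the members that run on farthest, with 2010, 1861 and 1257 bases behind the element. These lengths and classes are those of GENCODE M21. In RefSeq the whole of H2ac6 spans 487 bases and that of H4c14 384, so the 2 annotations differ there.

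The copies resemble each other closely, which limits how firmly reads can be assigned to 1 gene. Over the members, a median of 53.6% of the 50-base windows of the annotated transcript also occurred in another gene. For H3c14 the share was 100% (every window occurs in the overlapping annotated gene Gm20634), for H3c6 73.4% and for H4c12 71.5%. H2bc21 shared no window, and H4c14 shared 1.01%. A value of a member with a high share is therefore uncertain between it and its copies.

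None of the 42 tested histone genes passed the test after ozone, in a study where 4.25% of all 19633 genes tested did (834 genes, 2.41% higher and 1.84% lower). The share over all genes is itself unsteady, with 171 genes called after quantile normalization, 538 without filtered-air mouse 1, and 90 and 0 in batch 1 and batch 2 alone. The test was limma with the sort batch as a covariate, which sets each difference against the spread between mice. Its p-values were adjusted over all genes by the Benjamini-Hochberg method at 0.05. Unadjusted p-values under 0.05 were found for 3 members, H3c6, H3c15 and H4c12 (7.14% of members, against 16.7% of all genes). Differences were small, from -0.12 in H3c15 to 0.13 in H3c6, with a median of 0.026 against -0.0033 over all genes. More members lay above 0 than below, 32 against 10, or 76.2% against 48.0% of all genes tested. For none of the members did the 6 ozone mice lie wholly outside the range of the air mice, while 3.53% of all genes showed no overlap (1.96% higher and 1.58% lower). The 95% interval of the difference included 0 for 39 members, and its upper bound was under 0.2 for 40, so the intervals exclude larger rises on this scale for most members without showing that the groups are equal. In a bulk sample fewer cells of a type and less RNA per cell cannot be told apart.

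All values are on the authors' log2 scale, in which the filtered-air mean of each gene is 0, so a value is a difference from that mean and no level can be compared between genes. The scale also compresses small counts: the step from the minimum to the next value was 0.097 to 0.11 in a mouse. Because a gene seen in 1 group alone could pass the filter, the 34 members with no mouse at the minimum were also taken alone. Their median difference was 0.029, 26 of them lay above 0, and 0 passed the limma test.

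**Figure D1:**
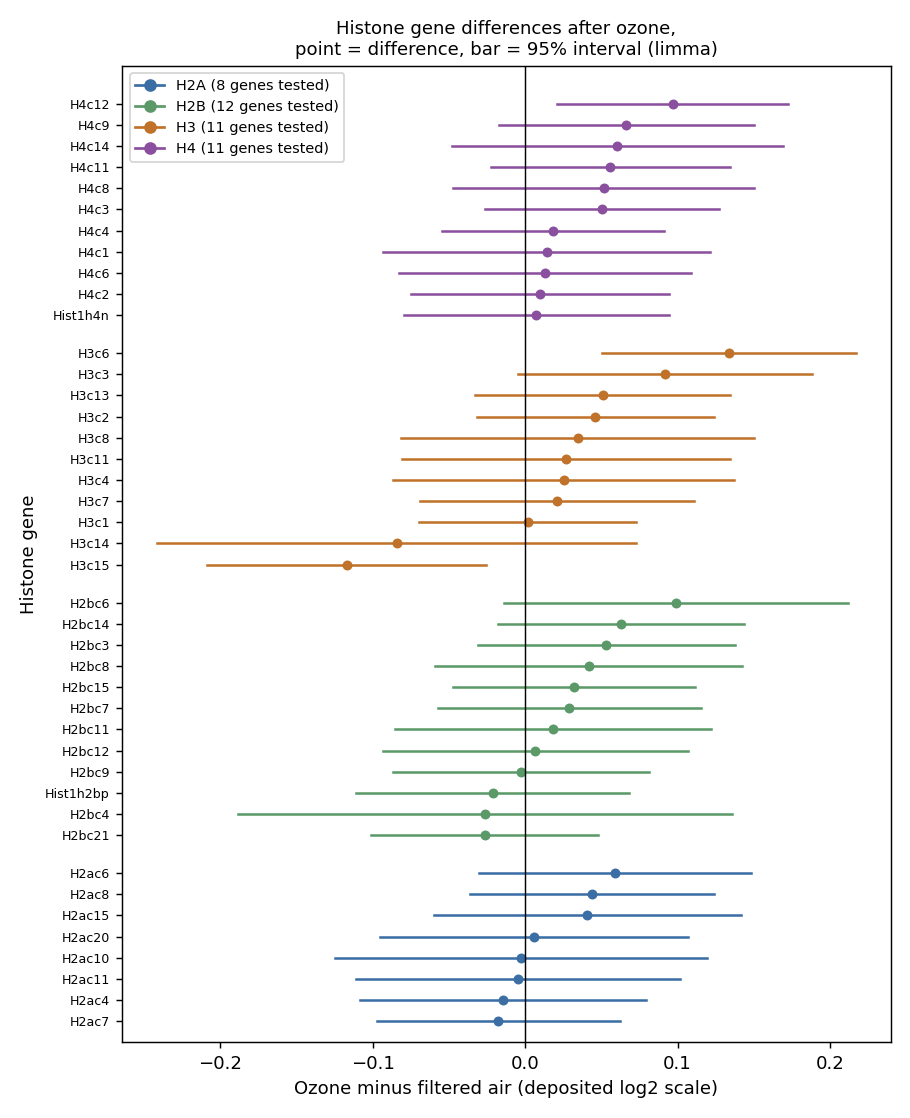
Ozone minus filtered air on the deposited log2 scale for each of the 42 tested histone genes, grouped by type, with 95% intervals from limma (6 mice in each group). All 11 H4 points lie right of 0, H3c15 at -0.12 and H3c6 at 0.13 are the ends of the range, and 39 intervals cross 0.

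H3 genes held both ends of the range. H3 carries the tail whose modifications mark active and silent chromatin. H3c6 (ENSMUSG00000069273.2, chr13:23561475-23562385) had the smallest p of all members. In the 6 filtered-air mice it lay between -0.071 and 0.090 with a median of -0.011, and in the 6 ozone mice between 0.056 and 0.19 with a median of 0.14. All 6 ozone mice were above the air mean, 5 of them above every air mouse, and ozone mouse 6 fell within the air range. The difference was 0.13 (SE 0.039, 95% interval 0.051 to 0.22, unadjusted p = 0.0039), and the limma p adjusted over all genes was 0.0717. It was 0.13 in each sort batch alone. H3c6 crossed the threshold when 1 mouse was left out, filtered-air mouse 6 (limma adjusted p = 0.0438) or ozone mouse 6 (0.0481), or when the batch covariate was dropped (0.0420). Its adjusted p ranged from 0.0438 to 0.153 over the 12 fits that each left out 1 mouse.

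H3c15 (ENSMUSG00000081058.5, chr3:96238479-96239127) pointed the other way. Its values ran from -0.099 to 0.075 in filtered air (median 0.014) and from -0.19 to -0.060 after ozone (median -0.090). Every ozone mouse was below the air mean, yet only ozone mice 1 and 2 lay below every air mouse. The difference was -0.12 (SE 0.043, limma adjusted p = 0.159), with -0.11 in batch 1 and -0.13 in batch 2. Its neighbour H3c14, in the same chromosome 3 cluster, had a difference of -0.084 with the interval from -0.24 to 0.073. Its ozone values spanned -0.29 to 0.19 and overlapped the air range of -0.17 to 0.17, and it is the gene that shares all of its windows. H3c3 had 0.092 (limma adjusted p = 0.329), and the other 7 H3 genes lay between 0.0018 and 0.051. The median of the 11 H3 genes was 0.027, and 9 were above 0. Leaving out single mice took that median from 0.014 (without ozone mouse 5) to 0.041 (without filtered-air mouse 6).

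The 11 H4 genes encode the same protein, the partner of H3 at the centre of the nucleosome. All 11 lay above 0, with a median of 0.051 and a range of 0.0074 (Hist1h4n) to 0.097 (H4c12), and 0 of 11 passed the limma test. In H4c12 (ENSMUSG00000064288.4, chr13:21750145-21750553) the air mice lay between -0.058 and 0.049 with a median of 0.0030, and the ozone mice between 0.040 and 0.18 with a median of 0.098. Only ozone mouse 2 overlapped the air mice, and the other 5 were above all of them. The difference was 0.097 (SE 0.035, 95% interval 0.021 to 0.17, unadjusted p = 0.0159, limma adjusted p = 0.160). It was 0.038 in batch 1 and 0.16 in batch 2, and the test of that batch difference gave an unadjusted p of 0.101. H4c9 (ENSMUSG00000060639.5, chr13:22040960-22041362) ran from -0.062 to 0.099 in air (median -0.026) and from 0.00070 to 0.094 after ozone (median 0.081). All 6 ozone mice were above the air mean, but none exceeded the highest air mouse. Its difference was 0.066 (SE 0.039, limma adjusted p = 0.441), 0.083 in batch 1 and 0.050 in batch 2.

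**Figure D2:**
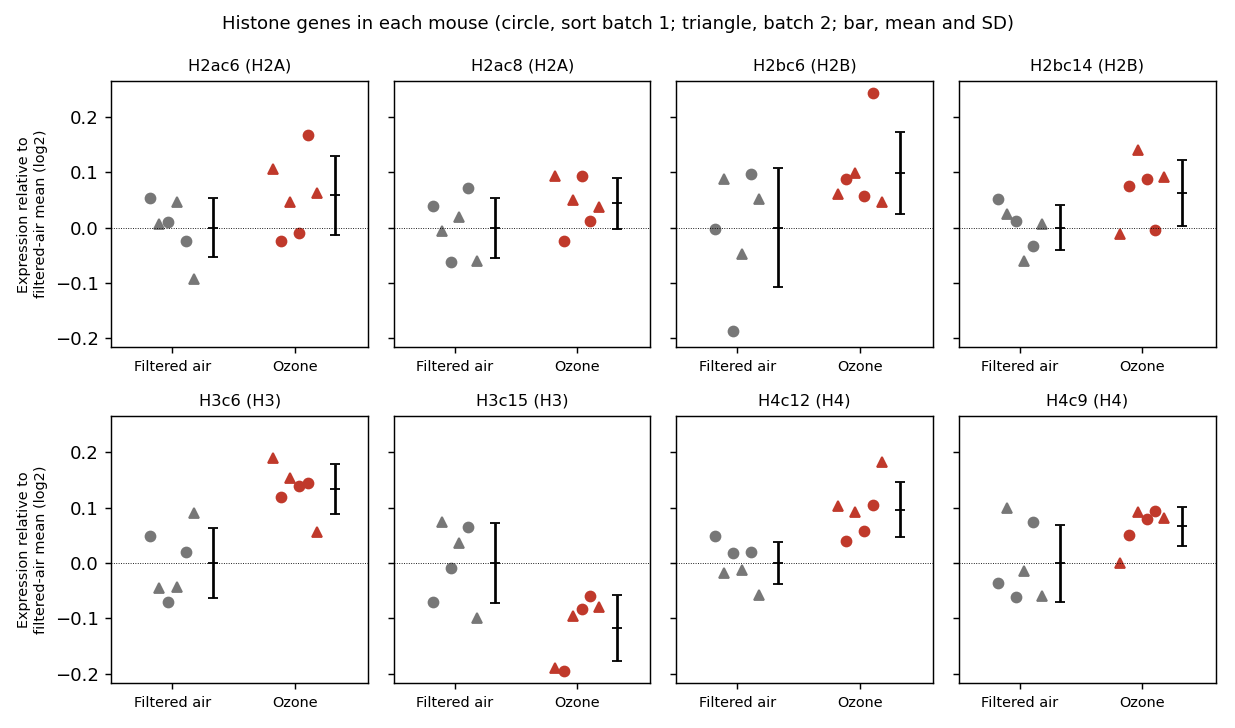
Deposited log2 value relative to the filtered-air mean in each mouse for the 2 genes of each histone type with the smallest p, circles for sort batch 1 and triangles for batch 2, with the mean and SD of 6 mice beside each group. H3c6 and H4c12 each have 5 ozone mice above every air mouse, all 6 ozone mice of H3c15 are below 0, and the groups overlap in all 8 genes.

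The mean over the 11 H4 genes was also taken in each mouse. It was 0 ± 0.014 (SD, n = 6) in filtered air and 0.040 ± 0.030 (SD, n = 6) after ozone. In air the mice spanned -0.028 to 0.010, and 5 of 6 ozone mice were above that range. Ozone mouse 1, at -0.010, fell within it. The median difference of the H4 genes rested in part on filtered-air mouse 3: without it the median was 0.018.

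H2B and H2A form the dimers that flank the H3 and H4 core. H2B differences ran from -0.026 in H2bc21 to 0.099 in H2bc6, with 8 of 12 genes above 0 and a median of 0.024. H2bc6 (ENSMUSG00000047246.7, annotated over chr13:23583670-23621124) had the widest air range of the 8 named histone genes. Its air mice lay between -0.19 and 0.098 with a median of 0.025, and its ozone mice between 0.047 and 0.24 with a median of 0.074. All 6 ozone mice were above 0 and only 2 of them were above every air mouse. The difference was 0.099 (SE 0.053, limma adjusted p = 0.382). It was 0.16 in batch 1 and 0.038 in batch 2, and 0.057 without filtered-air mouse 3. In H2bc14 (ENSMUSG00000114279.1, chr13:21722044-21722526) the air mice spanned -0.061 to 0.053 (median 0.0087) and the ozone mice -0.011 to 0.14 (median 0.082). There 4 of 6 ozone mice were above the air range, and the difference was 0.063 (SE 0.038, limma adjusted p = 0.451), 0.042 in batch 1 and 0.084 in batch 2. H2bc21, the member that shares no window with another gene, had a difference of -0.026 (95% interval -0.10 to 0.048).

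H2A genes were split evenly, 4 above and 4 below 0, with a median of 0.0016 and a range of -0.017 (H2ac7) to 0.059 (H2ac6). H2ac6 (ENSMUSG00000069270.6, chr13:23683473-23683959 in RefSeq) ranged from -0.092 to 0.054 in air (median 0.0080) and from -0.023 to 0.17 after ozone (median 0.055). Ozone mice 1, 5 and 6 were above every air mouse, and the other 3 lay inside the air range. The difference was 0.059 (SE 0.042, limma adjusted p = 0.549), with 0.032 in batch 1, 0.085 in batch 2 and 0.034 without ozone mouse 5. H2ac8 (ENSMUSG00000069272.6, chr13:23570663-23571220) ranged from -0.063 to 0.073 in air (median 0.0059) and from -0.023 to 0.093 after ozone (median 0.044). With 2 ozone mice above the air range its difference was 0.044 (SE 0.037, limma adjusted p = 0.640), 0.011 in batch 1 and 0.077 in batch 2. The sign of the H2A median turned in some alternatives, for example to -0.013 without filtered-air mouse 4 and to -0.0065 with RNA integrity as a covariate, and reached 0.026 without filtered-air mouse 6. The H2B median was -0.0053 in batch 1 alone, 0.0022 without ozone mouse 5 and 0.039 without filtered-air mouse 3.

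By position, 29 of the 36 tested genes on chromosome 13 lay above 0 (median 0.028), and 3 of the 6 on chromosome 3 (median -0.010). Taken by batch, the median difference of the members was 0.030 in batch 1 and 0.025 in batch 2, against -0.0023 and -0.0032 over all genes. Single genes were less steady: 23 of 42 had the same sign in both batches, 18 of them higher and 5 lower, and 19 had opposite signs. With 3 mice per group and batch the limma interaction test called 0.0% of all genes and 0 members, so it says nothing about whether the members' differences were stable. At an unadjusted p under 0.05 there was 1 member, H2bc8, with -0.060 in batch 1 and 0.14 in batch 2, against 2.6% of all genes.

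Over all 42 tested members, the mean in a mouse was 0 ± 0.011 (SD, n = 6) in air and 0.025 ± 0.023 (SD, n = 6) after ozone. Here 4 of 6 ozone mice were above every air mouse, and ozone mice 2 and 6 were not. Of these 4, ozone mouse 4 was practically level with filtered-air mouse 1, at 0.0116 each. The 2 highest means, 0.053 and 0.051, belonged to ozone mice 3 and 5.

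The least abundant members could be followed as reads. Where mice of a batch shared a minimum, taken here as 0 reads, the curve of the deposited scale gave back a read number for each mouse. This was possible for 15 members, in both batches for 9 of them, and the highest number was 8 reads, in H3c8 in ozone mouse 3. Apart from Hist1h2bp, which missed by up to 0.40, every recovered value was within 0.083 of a whole read. The minimum is 0 reads by definition and the curve was scaled to the first step above it. Only numbers above 1 read could therefore miss by much. The 9 genes together had 22 reads in the 6 air mice and 40 in the 6 ozone mice, not scaled for depth. Single air mice had 1 to 6 reads and single ozone mice 2 to 10, so the groups overlapped. H2ac10 made up much of both sums, with 10 reads in air and 14 after ozone. H2ac18 and H3c10 each had 1 read in 1 air mouse and 0 in all ozone mice. No test was made on these reads.

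**Figure D3:**
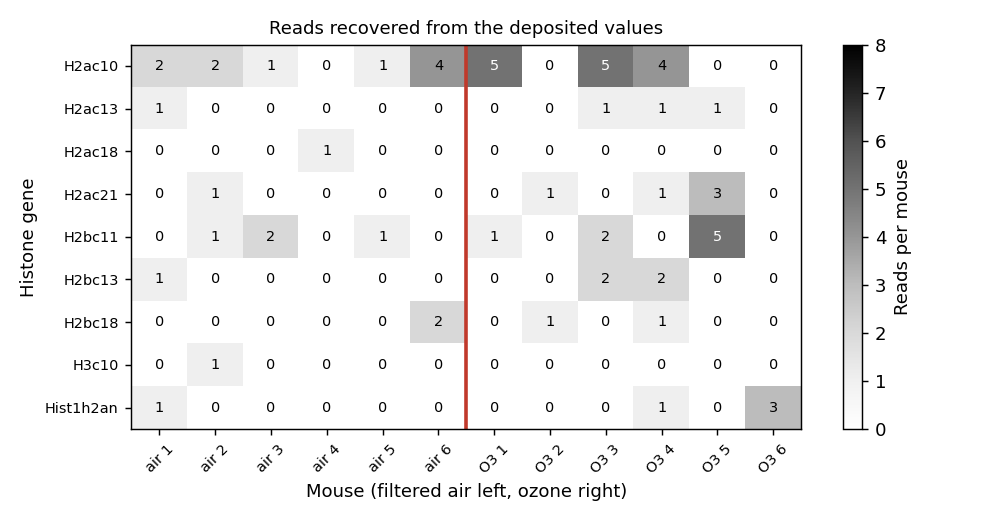
Reads recovered in each mouse (columns, filtered air left of the red line and ozone right) for the 9 histone genes (lines) with a shared minimum in both batches, darker for more reads. Most cells hold 0, and the 3 ozone mice with 9 or 10 reads in all are mice 3, 4 and 5.

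The rest of the DNA replication programme was measured in the same libraries. Of 36 genes for DNA replication and S phase, 28 rose by limma (against 2.41% of all genes) and 0 fell. All 36 lay above 0, against 48.0% of all genes, and the median difference was 0.32. Rrm1 and Rrm2, which encode the subunits of the enzyme that makes deoxynucleotides, rose by 0.46 (SE 0.052, limma adjusted p = 0.00040) and 0.50 (SE 0.072, adjusted p = 0.0018). Tyms, for thymidylate synthase, rose by 0.42, and the helicase subunits Mcm2, Mcm3 and Mcm5 by 0.43, 0.34 and 0.46. The highest upper bound of a named histone gene, 0.22 in H3c6, was below the lower bounds of all 6 of these genes, which ran from 0.23 in Mcm3 to 0.35 in Rrm1. These 6 have the smallest p-values of the list, and over all 36 genes the differences began at 0.062 and the lower bounds at -0.043. Because the scale compresses small counts and keeps no abundance, such gaps between genes need not be gaps in fold change. The polyA library also held mainly the polyadenylated part of the histone transcripts. With quantile normalization, 11 of the 36 genes were called.

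**Figure D4:**
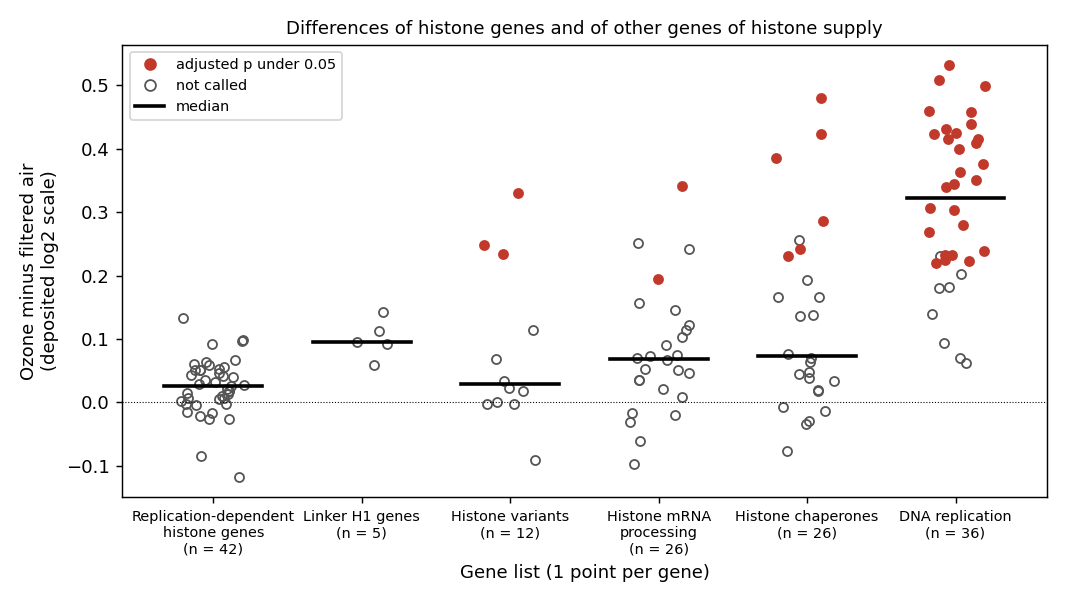
Ozone minus filtered air on the deposited log2 scale for each tested gene of 6 lists, filled where the adjusted p was under 0.05, with the median of each list as a bar. The 42 replication-dependent histone genes have a median of 0.026 and no filled point. The 36 DNA replication genes have a median of 0.32 and 28 filled points. Over all genes tested, 4.25% were called.

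Of the histone variants outside the clusters, 12 were tested, of which 3 (against 2.41% of all genes) rose by limma and 0 fell, and the median difference was 0.028. H2ax ran from -0.13 to 0.11 in air and from 0.17 to 0.36 after ozone, with no overlap, and rose by 0.25 (SE 0.049, limma adjusted p = 0.011). H2az2, one of the H2A.Z genes, ran from -0.11 to 0.099 and from 0.15 to 0.32, again with no overlap, and rose by 0.23 (SE 0.047, adjusted p = 0.012). Cenpa, the H3 variant of centromeres, rose by 0.33 (SE 0.072, adjusted p = 0.018), with 5 of 6 ozone mice above every air mouse. H2az1 had a difference of 0.11 (limma adjusted p = 0.164), while the H3.3 genes H3f3a and H3f3b had 0.0011 and -0.091. With quantile normalization none of the 12 was called (adjusted p of H2ax 0.0897, of H2az2 0.123 and of Cenpa 0.167), although the differences stayed at 0.21, 0.19 and 0.27.

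Genes that switch on and process histone mRNA were tested next, 26 in all, of which 2 rose and 0 fell, with a median difference of 0.069. Over all genes tested 2.41% rose, though a count of 2 in 26 is too small to judge by. An unadjusted p under 0.05 was found for 9 of the 26, or 34.6% against 16.7% of all genes. Above 0 lay 80.8% of the list, against 48.0% of all genes. Ccne1 and Cdk2, whose complex phosphorylates the histone gene activator NPAT at the start of S phase, rose by 0.34 (SE 0.060, limma adjusted p = 0.0055) and 0.19 (SE 0.044, adjusted p = 0.021). Cdk2 came to an adjusted p of 0.053 when any 1 of 3 mice was dropped (air mouse 1 and ozone mice 2 and 3), and quantile normalization took both off the list of calls (adjusted p of 0.0597 and 0.112), with differences of 0.28 and 0.16. Slbp, whose protein binds the stem-loop, had a difference of 0.15 with 5 of 6 ozone mice above every air mouse, and did not pass (SE 0.042, limma adjusted p = 0.0714). Npat had 0.16 (limma adjusted p = 0.0997), with all 6 ozone mice above the air mean.

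Histone chaperones carry new histones to DNA. Of 26 tested, 6 rose (against 2.41% of all genes) and 0 fell by limma, with a median of 0.073. Chaf1a and Chaf1b, subunits of the chromatin assembly factor that loads H3 and H4 behind the replication fork, rose by 0.42 (SE 0.075, adjusted p = 0.0058) and 0.23 (SE 0.052, adjusted p = 0.022). Chaf1b lost its call without ozone mouse 2 or without ozone mouse 5, with limma adjusted p of 0.055 and 0.058. Asf1b, which hands H3 and H4 to that factor, rose by 0.48, and Dnajc9, a co-chaperone of H3 and H4, by 0.29. Tonsl, which reads new H4 on replicated DNA, rose by 0.24 (limma adjusted p = 0.046) and, with single mice dropped in turn, was called 3 times out of 12, with adjusted p from 0.026 to 0.11. Quantile normalization left 0 of the 6 calls, with differences of 0.36 in Chaf1a, 0.40 in Asf1b and 0.23 in Dnajc9.

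Cell identity and library quality were checked on the same table. All 17 alveolar macrophage markers had no mouse at the minimum, with 2 called higher and 3 lower, against 4.25% of all genes called. In all 11 of the 17 were lower (median -0.062), and 9 had an unadjusted p under 0.05, or 52.9% against 16.7% of all genes. Their mean spanned -0.059 to 0.092 in air mice and -0.10 to 0.10 in ozone mice, so the groups overlapped. Of the 8 neutrophil markers, Camp held 1 identical value throughout and Ly6g and Ngp fell short of the filter, while the other 5 had no mouse at the minimum. Of these 5, 4 were lower after ozone (median -0.018, air mice -0.18 to 0.29, ozone mice -0.15 to -0.012). Over the tested markers of 10 other cell types, 0 were called higher and 1 lower, in the epithelial list. B cell markers were lower in 6 of 6 genes without a call (median -0.23). Their mean spanned -0.25 to 0.38 in air mice and -0.43 to -0.069 in ozone mice. Dendritic cell markers (median -0.10, air mice -0.15 to 0.16, ozone mice -0.22 to 0.047) and NK cell markers (median -0.090, air mice -0.16 to 0.33, ozone mice -0.15 to -0.017) were also lower in 6 of 6 genes each. Monocyte and interstitial macrophage markers were higher in 6 of 8 (median 0.16, air mice -0.22 to 0.32, ozone mice -0.054 to 0.26). Erythroid markers were higher in 5 of 5 (median 0.14, air mice -0.11 to 0.17, ozone mice -0.044 to 0.37), with 3 ozone mice above every air mouse, but only 2 of these 5 had no mouse at the minimum and another marker of the list was constant. Endothelial markers were lower in 5 of 6 (median -0.082, air mice -0.27 to 0.31, ozone mice -0.30 to 0.27). The medians of the T cell, epithelial and fibroblast lists were -0.021, -0.021 and -0.020. The part of such cells in the histone values was not tested. RNA integrity numbers were 9.42 ± 0.293 (SD, n = 6) in air and 9.48 ± 0.172 (SD, n = 6) after ozone. The table holds no read totals, so the depth of a library is unknown.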

How the data were processed

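The authors deposited 1 table of log2 values, variance-stabilized and batch-corrected going by the name of the deposited file, for 12 mice. The submitters' processing notes list, with no role or order, mm10, cutadapt, STAR 2.7.7a, Salmon 1.5.2, DESeq2 1.26.0, R 3.6.0 and limma 3.42.2. The library kit marks strand per the labels' protocols. Whether counting used strand, and how reads of near-identical copies were shared out, is not given in the sources used here. In the deposited log2 values the filtered-air mean and the difference between batch means are 0 in each gene, so abundance is not kept.

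Genes with at least 6 of 12 mice above the shared minimum (equal within 1e-06) were fitted with limma 3.58.1 in R 4.3.3, as ozone plus flow-sort batch, without a variance trend, with Benjamini-Hochberg adjustment over 19633 genes at 0.05. The fit was tested on simulated data. Per-mouse values are given for the 2 members of each histone type with the smallest p and the 2 with the largest difference, which were the same genes. From each of the 4 other lists the called genes with the smallest p, at most 6, were named. Some genes that this rule or the marker lists hold are not reported here. Slbp, Npat, H2az1, H3f3a, H3f3b and the members H3c3, H3c14, H2bc8 and H2bc21 were named after their values were seen. The members and lists were chosen with earlier results of these data known. Read numbers assume that the deposited curve maps a shared minimum to 0 reads. Stem-loops were searched in GENCODE M21 transcripts, and gene positions come from RefSeq GRCm38.p6. Alternatives were low-value filters, variance priors, normalizations, covariates, the replicate block, single batches and leaving out each mouse.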

Additional observations from a re-analysis of the deposited data

Results flagged for a closer look

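Among 60 combinations of a group and a measure that were examined for 1 mouse standing apart (a wide gap to the nearest mouse of its group, relative to the group's range), 2 were found, and chance gives about 1 in 20, or about 3 here. The mean of the H4 members was lowest in filtered-air mouse 3, at -0.028, with a gap of 0.70 of the range of the air mice. H2bc6 was highest in ozone mouse 5, at 0.24, with a gap of 0.74 of the range of the ozone mice.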

How the results depend on the processing

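None of the 8 named histone genes and none of the 17 other named genes changed sign under any alternative run. For the 8 histone genes, 181 of 184 alternative values kept their side of the threshold, and the 3 that did not are those of H3c6 given above. For the 17 others, 58 of 391 values lost the call, most of them in a single batch or with quantile normalization. Quantile normalization gave 171 called genes in place of 834, 11 for DNA replication, and 0 each for variants, processing and chaperones. Batch 1 alone (3 against 3) gave 90 called genes, 12 for DNA replication and 0 for each of the other lists, and batch 2 alone 0 for all genes and for each list. Without the batch covariate 1 histone gene was called higher and 1152 genes were called in all. Leaving out 1 mouse gave 538 (without filtered-air mouse 1) to 751 called genes, 0 to 1 histone genes called higher, 1 to 3 processing genes, and a median of the H4 members of 0.018 to 0.056. The median of all histone members stayed between 0.016 (without ozone mouse 3) and 0.034 over these 12 fits, and between 0.020 and 0.030 over the other alternatives. Replicate numbers were not taken as pairs, since same-numbered mice correlated in their deviations at over 0.1 for 4 of the 6 numbers and not for the others (range -0.0026 to 0.28). Of the 12 mice, 6 correlated best with the mouse of their own number in the other group, a hint from the data and not from the design. With the replicate number as a block 853 genes were called, 0 of them histone members, with 27 for DNA replication, 7 chaperones, 3 variants and 2 processing genes. No median of H1 members could be given, as no H1 gene met the naming rule. The cause of these shifts was not tested.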

Other observations

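The linker histone H1 genes H1f1 to H1f5, which seal the DNA at its entry to the nucleosome, are replication-dependent but named outside the rule, and they were picked after the naming in the table was seen. All 5 lay above 0, with a median difference of 0.096 and a range of 0.059 (H1f1) to 0.14 (H1f2), and limma called 0 of them. An unadjusted p under 0.05 was found for 1 of the 5, or 20.0%, near the 16.7% of all genes. This gene, H1f5, lay between -0.031 and 0.063 in air and between -0.010 and 0.15 after ozone, with 5 of 6 ozone mice above every air mouse and a difference of 0.092 (SE 0.037, limma adjusted p = 0.208). In H1f2 the air mice spanned -0.30 to 0.15 and the ozone mice 0.030 to 0.28, so the groups overlapped. The mean over the 5 genes was 0 ± 0.036 (SD, n = 6) in air and 0.10 ± 0.057 (SD, n = 6) after ozone. The replication-independent linker genes H1f0 and H1f10 had differences of -0.0024 and 0.033. H2aw and H2bu2, also outside the rule, had a median of -0.026, and limma called 0 of the 2, with 0 at an unadjusted p under 0.05.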
